A study of Rattus norvegicus with 164 samples.

Results

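The genes described here encode the proteasome, its regulators and its assembly factors, measured by RNA sequencing in rats of an outbred laboratory population, the heterogeneous stock, in tissue labelled prelimbic cortex. Members were the autosomal rows whose symbol is Psma, Psmb, Psmc, Psmd, Psme, Psmf or Psmg followed by digits only and whose mean level over the 130 libraries was at least 1 on the log2(CPM + 1) scale, where CPM is the estimated count per 1000000 estimated counts of a library. Of the 38354 genes of the table, 48 symbols had that form and 44 were kept: 8 alpha and 8 beta subunits of the core particle, 6 ATPases and 11 other subunits of the regulatory particle, 4 activators, Psmf1, 2 assembly chaperones of the regulatory particle and 4 of the core particle. The inducible catalytic subunits Psmb8 and Psmb9 were left out by name, Psmd10 lies on the X chromosome, and Psmb11 fell below the level.

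The libraries came from separate animals, each with its own identifier in the labels, and no treatment, sex, age or batch was given in the sources used here. The identifiers divide them into 68 with an all-decimal number, called the decimal series, 51 whose identifier starts with E21DCD, and 11 further libraries of the E21DCD kind whose identifier was corrected after a genotype mismatch, called reassigned. Of 164 labelled samples, 34 were not analysed here. All 130 share the tissue label and the outbred background. What sets the decimal and E21DCD animals apart, other than the form of the identifier, was not given, so a date, a cohort or a protocol cannot be told apart from the series.

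Totals of estimated counts per library ran from 15122563 to 55950487, with a median of 25789090. In 11 libraries, all of the decimal series, the mean of the striatal marker genes exceeded that of the glutamatergic cortical markers, against the labelled tissue: their summed striatal markers reached 5616 to 8226 CPM, against 300.2 to 863 CPM in 112 other libraries. The remaining 7 libraries, decimal 15 and 6 of the E21DCD series, scored over 0.2 on the first principal component of the libraries that were not striatal-like. Results are therefore given with all libraries, without the 11 (119 left) and without these 18 together (112 left).

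The proteasome is the main ATP-dependent protease of the cytosol and nucleus. Its core particle is a barrel of stacked alpha and beta rings with the active sites inside, and the regulatory particle binds ubiquitin-tagged proteins, removes the ubiquitin, unfolds the chain and feeds it into the barrel. In neurons this pathway sets protein turnover at synapses as well as general protein quality. Many subunit genes are induced together by the transcription factor Nfe2l1 when proteasome activity falls short, and interferon signalling exchanges catalytic subunits and adds the Psme1 and Psme2 activator ring.

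Of the 44 members, 40 had a RefSeq promoter window of 300 bases, 250 before and 50 after the annotated start, in the GRCr8 table. Windows of 5 members are shown from the 250 bases before the start: the constitutive catalytic subunits, and Psmb10 and Psme2 of the inducible genes. Capitals mark TGACNNNGC, the core of the antioxidant response element that Nfe2l1 binds, CCAAT, the ETS motif CCGGAAG, or 2 GAAA with 2 bases between them, a core of the interferon-stimulated response element, searched on both strands.
Psmb5, GRCr8 chr15:32047380-32047629, minus strand: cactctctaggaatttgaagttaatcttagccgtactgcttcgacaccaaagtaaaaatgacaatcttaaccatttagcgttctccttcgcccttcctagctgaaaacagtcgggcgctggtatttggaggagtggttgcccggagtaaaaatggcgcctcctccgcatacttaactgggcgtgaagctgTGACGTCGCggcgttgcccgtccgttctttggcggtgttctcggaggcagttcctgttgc
Psmb6, GRCr8 chr10:55737638-55737887, plus strand: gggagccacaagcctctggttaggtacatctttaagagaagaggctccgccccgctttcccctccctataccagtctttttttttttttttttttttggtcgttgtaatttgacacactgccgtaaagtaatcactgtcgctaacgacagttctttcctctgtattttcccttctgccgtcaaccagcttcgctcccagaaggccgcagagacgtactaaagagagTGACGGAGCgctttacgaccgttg
Psmb7, GRCr8 chr3:42827471-42827720, minus strand: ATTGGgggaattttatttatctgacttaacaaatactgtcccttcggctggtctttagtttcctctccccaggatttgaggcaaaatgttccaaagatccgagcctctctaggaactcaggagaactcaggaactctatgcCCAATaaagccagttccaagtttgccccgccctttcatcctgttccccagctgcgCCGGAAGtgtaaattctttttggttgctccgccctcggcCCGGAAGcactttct
Psmb10, GRCr8 chr19:50743293-50743542, minus strand: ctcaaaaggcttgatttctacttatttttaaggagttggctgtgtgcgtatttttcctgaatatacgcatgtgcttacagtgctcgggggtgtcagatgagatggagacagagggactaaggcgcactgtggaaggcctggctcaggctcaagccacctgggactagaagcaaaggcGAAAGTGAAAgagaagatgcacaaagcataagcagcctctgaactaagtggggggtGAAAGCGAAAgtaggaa
Psme2, GRCr8 chr15:33052752-33053001, minus strand: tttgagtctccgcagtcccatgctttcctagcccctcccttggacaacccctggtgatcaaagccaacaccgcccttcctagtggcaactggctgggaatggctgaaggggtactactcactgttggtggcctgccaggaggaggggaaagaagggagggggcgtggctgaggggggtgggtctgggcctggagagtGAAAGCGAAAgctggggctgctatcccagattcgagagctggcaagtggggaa
The windows of Psmb5 and Psmb6, which carry the chymotrypsin-like and caspase-like activities, hold 1 TGACNNNGC match each, and that of Psmb7, with the trypsin-like activity, holds 2 CCGGAAG and 2 CCAAT matches instead. Psmb10, the inducible replacement of Psmb7, has this GAAA pair at 73 and 17 bases before its start, and Psme2 at 53 bases before its start. The window of Psme1, the partner of Psme2, is not shown and held no GAAA pair. The start that RefSeq gives for Psme2 lies 304 bases from the position in the deposited table, and that of Psmb6 lies 36 bases away, while the other 3 starts are the same.

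Over the 40 windows, the ETS motif CCGGAAG was in 15 (37.5%), against 9.22% of all 27457 promoter windows and 15.8% of the 11960 windows of tested genes. TGACNNNGC was in 8 members (20%, against 12.2% of all windows and 14.1% of those of tested genes), namely Psma3, Psmb2, Psmb5, Psmb6, Psmd1, Psmd3, Psmd9 and Psme4. The nuclear respiratory factor motif, GCGC and TGCGC with 1 base between them, was in 6 (15%, against 4.71% of all and 9.08% of tested genes), 4 of them alpha subunits: Psma2, Psma3, Psma4 and Psma5. CCAAT was in 18 members (45%), in 37.7% of all windows and in 36.8% of those of tested genes. The GAAA pair, a motif added after the sequences were seen, was in 6 members (15%, against 3.77% of all windows and 2.87% of those of tested genes): Psma4, Psmb3, Psmb10, Psmd7, Psme2 and Psmg4. None of the 6 ATPase windows held TGACNNNGC. Of the 40 window starts, 26 were the position in the deposited table and 33 lay within 100 bases of it. Those of Psma6 and Psmd11, both counted with the ETS motif, lay 13671 and 8674 bases away. These matches describe letters in a fixed window and are not measured binding.

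Levels chose the members and are therefore a description. Of the 44, 43 had a mean of at least 3 on the log2(CPM + 1) scale, and the member means ran from 1.01 for Psma8 to 7.61 for Psmd2, a scaffold subunit of the regulatory particle. Psma8, the alpha subunit of the testis form of the core, lay just inside the threshold and Psmb11, the catalytic subunit of the thymus form, just outside it at 0.79. The next members above Psma8 were Psmg4 at 3.26 and Psmg2 at 3.64. Median estimated counts per library were 27.0 for Psma8 and 213.5 to 5073 for the other 43, so counting error is larger for Psma8. Transcript lengths were not used here, so the order of levels between genes carries their length as well as their abundance. Near-identical copies were listed at low levels: Psmb3l1 averaged 0.15 and was above 0 in 112 libraries, and Psmb3l2, Psmb6l1 and Psmg4l1 averaged 0.06, 0.03 and 0.0006. How the estimated counts were split between these copies and Psmb3, Psmb6 and Psmg4 is uncertain.

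Most proteasome genes varied less between libraries than genes of the same level. The SD of each member over libraries was divided by a smooth trend of SD on mean over autosomal genes, and the median of this ratio was 0.744 for the members, against 0.986 for all genes. Psmd2 had the lowest ratio, 0.335, with levels from 7.29 to 7.78 in the 130 libraries. Psmb10 had the highest at 1.46, followed by Psme2 at 1.32 and by Psmg4, a chaperone of core assembly, also at 1.32. None of the 44 exceeded 1.5, which 17.0% of all autosomal genes did. With median-of-ratios scaling, however, 4 members did, among them Psmb10 at 1.75, Psmb3 at 1.56 and Psme2 at 1.53 (18.0% of all genes), and the members' median was 0.887 against 0.982. Without the 11 libraries Psmb10 alone did, at 1.63. Without the 18 libraries, the members' median ratio was 0.960 against 0.986 for all genes, so the low spread of the set depended on which libraries were used. Psmb10 and Psme2 stayed highest there, at 1.43 and 1.41, while Psmg4 had 1.01.

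**Figure D1:**
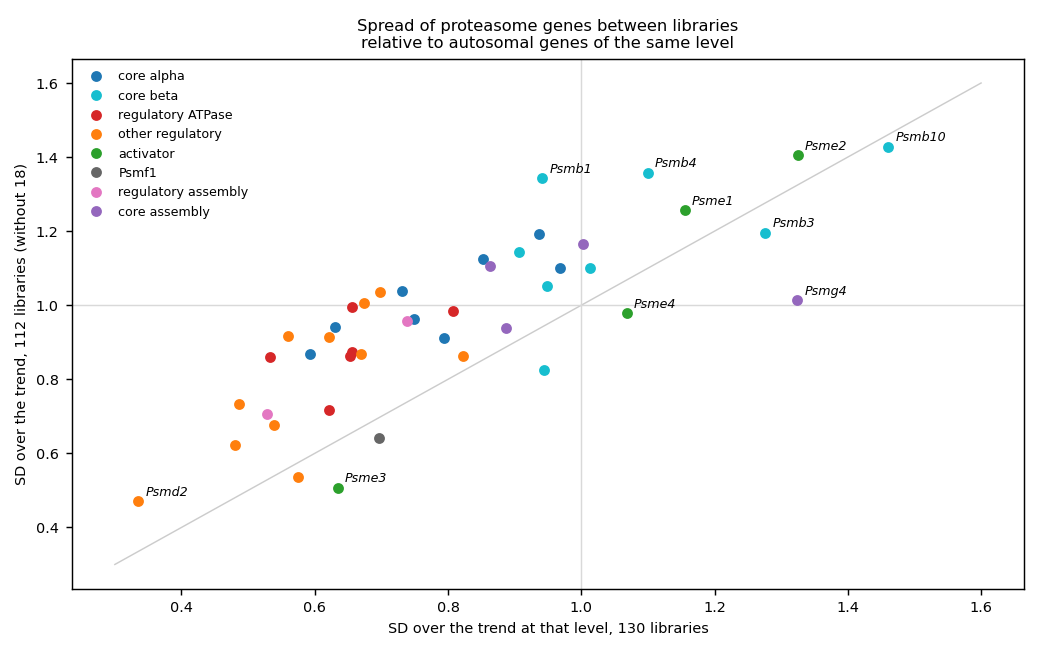
SD of log2(CPM + 1) of each proteasome gene divided by the trend of SD on mean over autosomal genes, with all 130 libraries (horizontal axis) and with 112 (vertical axis). Points are genes coloured by class, and lines mark a ratio of 1 and equality; Psmb10 and Psme2 lie at the top right and Psmd2 at the bottom left.

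With all libraries, 8 of the 44 members were higher in the decimal series than in the E21DCD series and 3 were lower, and 33 passed in neither direction. Over the 15150 genes tested, 15.1% were higher, 12.6% lower and 27.6% changed in either direction, so the members' share of 25.0% lay close to the background. The median difference was 0.03 on the log2(CPM + 1) scale for the members and 0.01 for all genes. Tests were limma's, two-sided, on 68 against 51 libraries, with Benjamini-Hochberg adjustment over all tested genes at 0.05. Without the 11 striatal-like libraries, 3 members were higher and 1 lower (background 5.29% and 3.48%). Without the 18 libraries, 26 members were higher and 1 lower (background 19.2% and 15.0%), with a median difference of 0.08 against 0.01 for all genes. Of those 18, the 7 at the end of the first component were picked from the values of all tested genes, members included. As 6 of the 7 were E21DCD libraries, the p-values of this fit, here and below, do not stand apart from that choice. The number of members higher thus ranged from 3 to 26 with the choice of libraries, and 2 members, Psmb1 and Psmd11, passed in all of these fits.

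The counts for other abundant housekeeping complexes also changed with the libraries used. Without the 18, 54 of 80 respiratory chain genes, 71 of 78 cytosolic ribosomal protein genes and 41 of 71 mitochondrial ribosomal protein genes were higher in the decimal series, with median differences of 0.13, 0.25 and 0.10 on the log2(CPM + 1) scale. With all libraries these counts were 19, 53 and 19, and without the 11 they were 8, 33 and 6. Of all tested genes, 19.2% were higher and 15.0% lower without the 18. These shares were 15.1% and 12.6% with all libraries, and 5.29% and 3.48% without the 11. Cell type markers moved with the series as well. All 8 oligodendrocyte markers were higher in the decimal series in each of these fits, with median differences of 0.90 with all libraries, 0.62 without the 11 and 0.76 without the 18. Their summed level without the 18 ran from 1536 to 21348 CPM, median 4405, in the decimal series and from 1126 to 7260 CPM, median 2702, in the E21DCD series, with no marker at 0. Of 7 microglial markers, 4 were higher with all libraries, 2 without the 11 and 6 without the 18, there with summed levels of 226 to 450 CPM, median 288, against 212 to 339 CPM, median 256. With all libraries all 10 glutamatergic markers were lower in the decimal series (median difference -0.77) and 10 of 11 striatal markers were higher (0.82). These counts were 1 lower and 3 higher without the 11, and without the 18 they were 2 glutamatergic markers lower and 5 striatal markers higher and 1 lower. Of 4 meningeal markers, 4, 3 and 3 were lower in these fits, with median differences of -0.57, -0.31 and -0.35. Of 6 interneuron markers, 1 was higher and 1 lower with all libraries, none passed without the 11 by limma (1 had an unadjusted p under 0.05), and 2 were higher and 3 lower without the 18. Of 6 astrocyte and 3 endothelial markers, 3 and 2 were higher without the 18, and none passed in the other fits by limma (1 and 1 had an unadjusted p under 0.05 with all libraries, 2 and 1 without the 11). The part of these cell types in the proteasome differences was not tested. In tissue RNA, more cells of a type and more RNA per cell cannot be told apart.

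**Figure D2:**
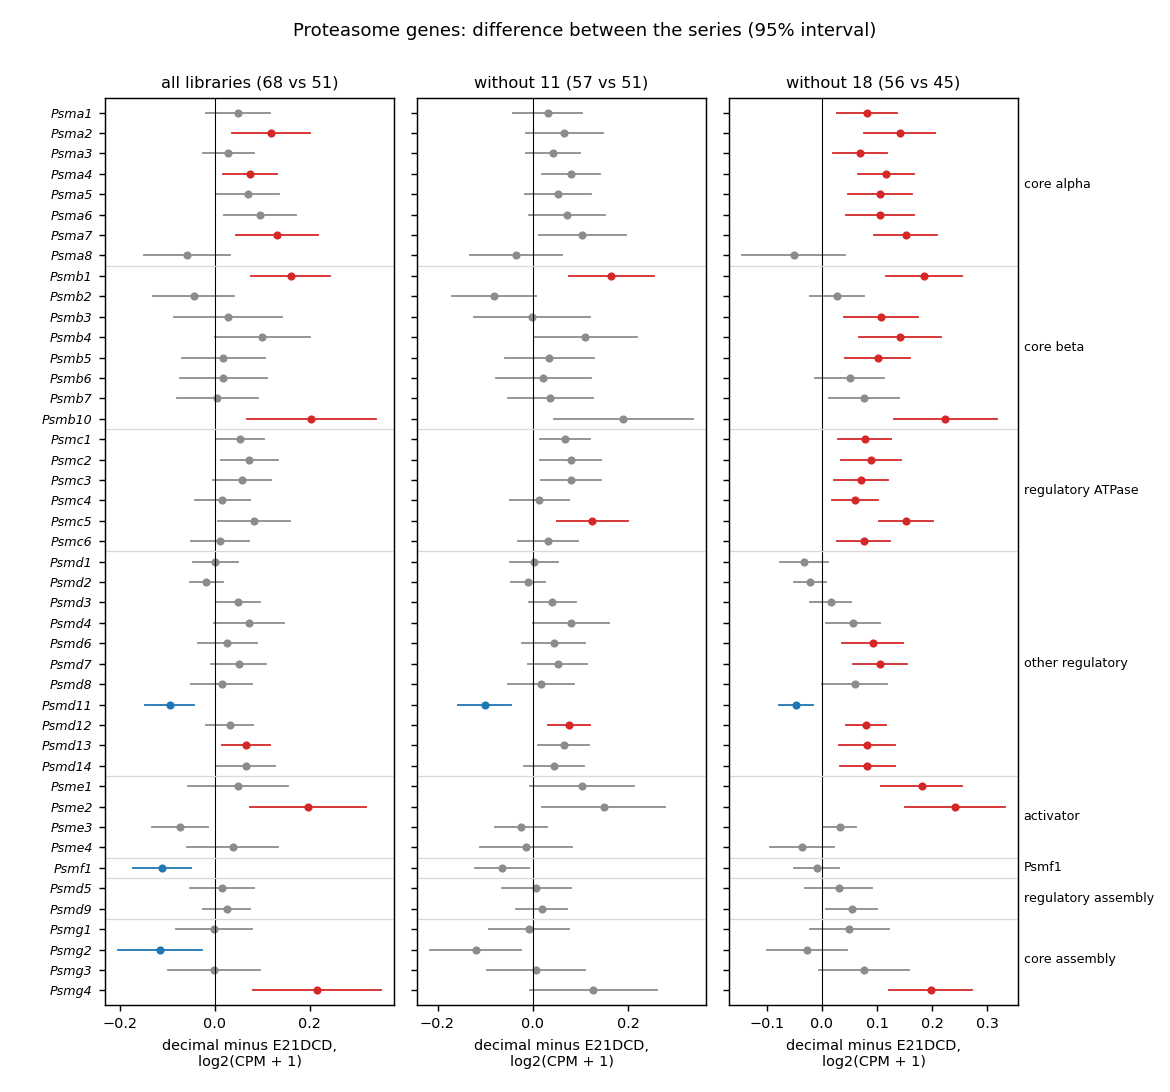
Difference between the decimal and the E21DCD series for each of the 44 proteasome genes on the log2(CPM + 1) scale, with 95% intervals, for 3 sets of libraries; numbers above the panels are libraries in the 2 series. Red marks higher and blue lower in the decimal series at an adjusted p under 0.05, and grey neither: 8 and 3 genes with all libraries, 3 and 1 without 11, and 26 and 1 without 18.

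Among the alpha subunits, which form the outer rings and the gate of the barrel, Psma2, Psma4 and Psma7 were higher in the decimal series with all libraries, by 0.12, 0.07 and 0.13 on the log2(CPM + 1) scale (limma adjusted p = 0.0256, 0.0418 and 0.0174). None of the 8 passed without the 11 libraries in limma's test, although 2 had an unadjusted p under 0.05. Without the 18, 7 of 8 passed, from 0.07 for Psma3 to 0.15 for Psma7, and Psma8 had -0.05 (95% interval -0.14 to 0.04). Psma7 ran from 6.27 to 7.86, median 6.51, in the 68 decimal libraries and from 6.03 to 7.17, median 6.36, in the 51 E21DCD libraries. The highest Psma7 level of all was that of decimal 15, and the ranges of the series overlapped over most of their length.

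Psmb1, a beta subunit without catalytic activity, was the member with the smallest adjusted p with all libraries. Its level ran from 6.70 to 8.39, median 7.06, in the decimal series, from 6.69 to 7.53, median 6.86, in the E21DCD series and from 6.81 to 7.23, median 7.02, in the reassigned libraries. The ranges overlapped, and the decimal mean was higher by 0.16 ± 0.042 (SE; adjusted p = 0.0028 by limma), a fold of 1.12. The difference was 0.16 without the 11 libraries (adjusted p = 0.0125) and 0.18 without the 18 (adjusted p = 2.81e-05). The 3 constitutive catalytic subunits did not pass with all libraries: Psmb5 had 0.02 (95% interval -0.07 to 0.11), Psmb6 0.02 (-0.07 to 0.11) and Psmb7 0.01 (-0.08 to 0.09). Without the 18, Psmb5 was higher by 0.10 (adjusted p = 0.00528), whereas Psmb6 with 0.05 (-0.01 to 0.11) and Psmb7 with 0.08 (0.01 to 0.14) did not pass.

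Psmb10, the inducible trypsin-like subunit, ran from 3.71 to 6.86, median 4.15, in the decimal series, from 3.59 to 5.09, median 3.96, in the E21DCD series and from 3.83 to 4.42, median 4.01, in the reassigned libraries. The top value was again decimal 15, and the other libraries of both series overlapped. The mean difference was 0.20 ± 0.0686 (SE; limma adjusted p = 0.0191), 0.19 without the 11 (adjusted p = 0.0896) and 0.22 without the 18 (adjusted p = 0.000152). The other inducible subunits are not members: Psmb8, which replaces Psmb5, had 0.19, 0.20 and 0.23 in the same fits (limma adjusted p = 0.0178, 0.0414 and 0.00216), and Psmb9, which replaces Psmb6, had 0.05, 0.05 and 0.12 and did not pass. Whether Psmb10 or Psmb8 differed more than the constitutive subunits was not tested.

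The regulatory ATPases, Psmc1 to Psmc6, form the ring that unfolds substrates and opens the gate. None of the 6 passed with all libraries by limma, although 3 had an unadjusted p under 0.05; the values ran from 0.01 for Psmc6 to 0.08 for Psmc5. Psmc5 was higher without the 11 by 0.12 (adjusted p = 0.0247), and all 6 were higher without the 18, from 0.06 for Psmc4 to 0.15 for Psmc5 (adjusted p = 1.86e-06 for Psmc5). In the decimal series Psmc5 ran from 7.14 to 8.86, median 7.58, and in the E21DCD series from 7.24 to 8.06, median 7.46. Both extremes belonged to the decimal series: the top library was decimal 15 and the lowest was 1 of the striatal-like libraries.

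Of the 11 other regulatory subunits, Psmd13 was higher and Psmd11 lower with all libraries. Psmd11, a lid subunit that braces the regulatory particle against the core, ran from 5.74 to 6.72, median 6.57, in the decimal series, from 6.48 to 7.20, median 6.61, in the E21DCD series and from 6.48 to 6.69, median 6.58, in the reassigned libraries. Its lowest value was that of decimal 15, which with median-of-ratios scaling had 6.64 and lay inside the 6.31 to 6.76 of the 112, and the 4 highest were E21DCD libraries at the end of the first component. The decimal mean was lower by 0.10, with an SE of 0.0261 (limma adjusted p = 0.00417). The value without the 18 was -0.05 (adjusted p = 0.0156). Without the 18, 5 of the 11 were higher: Psmd6, Psmd7 and Psmd12 by 0.09, 0.11 and 0.08, Psmd13 by 0.08 and Psmd14, the subunit that cuts ubiquitin from the substrate, by 0.08. Psmd1 and Psmd2, the large scaffold subunits, had -0.03 and -0.02 there and did not pass. Psmd4, a ubiquitin receptor, had 0.07, 0.08 and 0.06 with all libraries, without the 11 and without the 18, and passed in none of these fits.

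The activators bind the ends of the core in place of the regulatory particle. Psme2, with Psme1 part of the interferon-inducible ring, ran from 3.47 to 5.31, median 4.00, in the decimal series, from 3.22 to 4.91, median 3.80, in the E21DCD series and from 3.44 to 4.14, median 3.86, in the reassigned libraries. It was higher in the decimal series by 0.20 ± 0.062 (SE; limma adjusted p = 0.0122), by 0.15 without the 11, where it did not pass (adjusted p = 0.142), and by 0.24 without the 18 (adjusted p = 3.13e-05). Psme1 had 0.05, 0.10 and 0.18 in these fits and passed without the 18 (adjusted p = 9.64e-05). Psme3, a nuclear activator, had -0.07 with all libraries (adjusted p = 0.0501), -0.02 without the 11 and 0.03 without the 18, so its sign turned. Psme4, which also acts in the nucleus, had 0.04, -0.01 and -0.04 and passed in none.

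Psmf1, an inhibitor or adaptor of the core, was lower in the decimal series by 0.11 with all libraries (SE 0.0309, limma adjusted p = 0.00467), but had -0.06 without the 11 (adjusted p = 0.155) and -0.01 without the 18. In the 11 striatal-like libraries Psmf1 ran from 4.72 to 5.03 and in the 6 E21DCD end libraries from 5.42 to 5.93, against 4.85 to 5.43 in the 112 others. Each of these sets thus lay at a different edge of the range. Of the assembly factors, Psmg4 was higher by 0.22 ± 0.068 (SE; adjusted p = 0.0123 by limma), by 0.13 without the 11 (adjusted p = 0.246) and by 0.20 without the 18 (adjusted p = 4.03e-05). Psmg2 was lower with all libraries, by 0.12 with an SE of 0.0445 (limma adjusted p = 0.0415), and had -0.03 without the 18. Psmg1, Psmg3, Psmd5 and Psmd9 passed in none of the 3 fits.

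**Figure D3:**
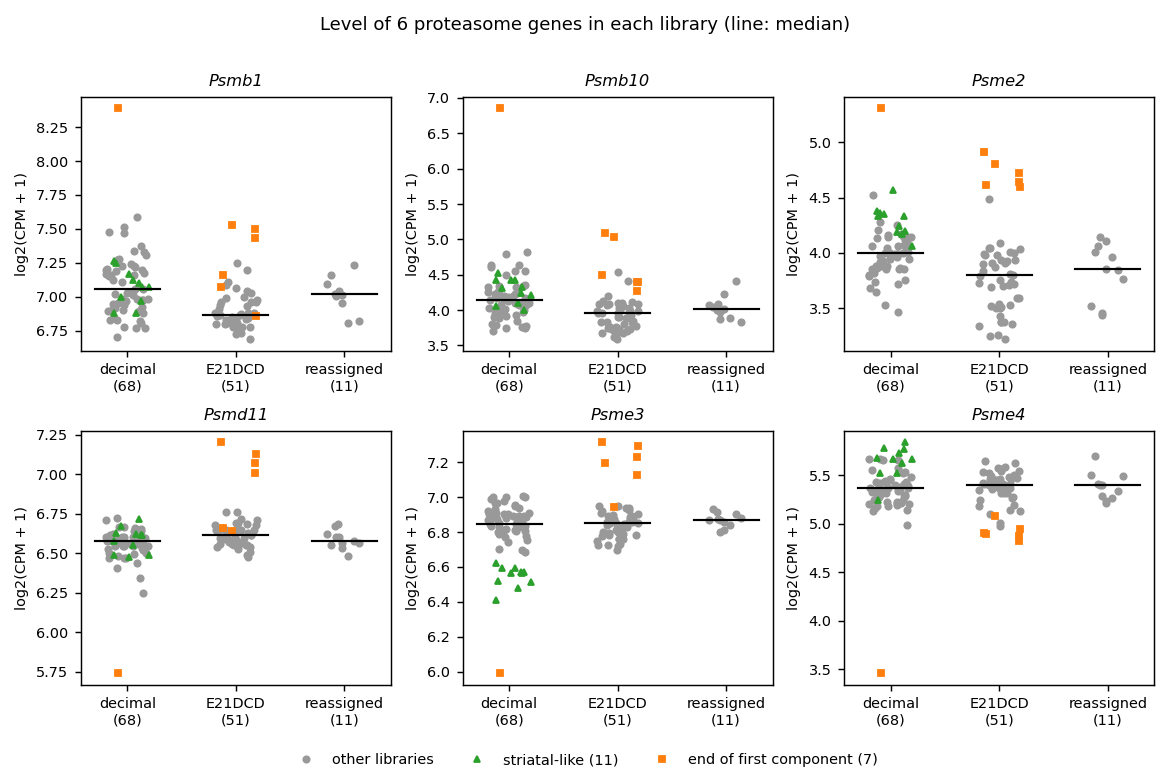
Level of 6 proteasome genes in each library on the log2(CPM + 1) scale, by series (68, 51 and 11 libraries), with a line at each median. Triangles are the 11 striatal-like libraries and squares the 7 at the end of the first component; the lone square of the decimal series is decimal 15, which on this scale is highest in Psmb1, Psmb10 and Psme2 and lowest in Psmd11, Psme3 and Psme4; with median-of-ratios scaling it lies inside the range of the 112 in Psmd11 and Psme3.

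None of the 44 members differed between the 11 reassigned and the 51 other E21DCD libraries (background 0% of 15150 genes, limma). The smallest unadjusted p among members was 0.102, for Psma5 with a difference of 0.09, so none of the 44 had an unadjusted p under 0.05. No member passed after adjustment under the alternatives tried for this comparison either. Without the 6 E21DCD libraries at the end of the first component, however, 14 of the 44 members had an unadjusted p under 0.05, as did 1324 of the 15150 genes (limma, 11 against 45 libraries).

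In the 6 E21DCD libraries at the end of the first component, 5 members lay above the whole range of the 112 others and none below (background 3.17% above and 6.50% below): Psmb2, Psmb3, Psme1, Psme2 and Psmg2. With median-of-ratios scaling 8 lay above and none below (background 4.53% and 5.00%), and Psmb5, Psmf1 and Psmg3 joined the list. Psmb3, a beta subunit without catalytic activity, ran there from 6.66 to 7.08 against 5.43 to 6.22 in the 112. Psme1 ran from 5.39 to 5.94 against 4.42 to 5.37, and Psme2 from 4.60 to 4.91 against 3.22 to 4.52. Psme4 went the other way, with 4.83 to 5.08 against 4.98 to 5.70, and overlapped the 112 at its upper end. These libraries were picked from the values of all genes, members included, so the comparison is a description with no test.

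Decimal 15 stood apart in another way. Scaled by library totals, 22 of the 44 members lay above and 13 below the range of the 112, while of all tested genes 11.5% were above and 71.5% outside the range in either direction. This split depends on the scaling. Median-of-ratios scaling, which centres the median gene and was added here after seeing the data, raised the median gene of decimal 15 by 0.85 on the log2(CPM + 1) scale and moved those of the 112 by -0.06 to 0.11. With it, 33 members lay above and 2 below, against 30.5% and 33.8% of all tested genes. The members high under both scalings included Psmb1, Psmb4, Psmb5, Psmb6, Psmb7 and Psmb10, 5 of the 6 ATPases and Psmd4, with Psmb4 at 8.67 against 6.48 to 7.38 in the 112 and Psmb10 at 6.86 against 3.59 to 4.83. Psmb4 had 9.58 against 6.50 to 7.35 and Psmb10 had 7.76 against 3.58 to 4.80 with median-of-ratios scaling. Psma1, at 5.01 against 5.64 to 6.45 when scaled by totals, had 5.90 against 5.75 to 6.44 with the other scaling and so lay inside the range. Psma8 and Psme4 lay below the range under both.

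In the 11 striatal-like libraries, 1 member lay below the range of the 112 and none above (background 7.10% below and 5.15% above). That member was Psme3, at 6.41 to 6.62 with a median of 6.57, against 6.69 to 7.01 with a median of 6.86 in the 112. The gap between these ranges was small, and every one of the 11 was below the lowest of the 112. Psme3 was also the 1 member below, with none above, under median-of-ratios scaling (background 8.13% and 4.59%). Psmg4 was at 3.68 to 3.97 against 2.58 to 3.72, and Psmd12 at 6.04 to 6.35 against 6.19 to 6.62, both overlapping at an edge. Summed oligodendrocyte markers in these libraries were 12251 to 24009 CPM against 1126 to 21348 CPM in the 112, and their part in these levels was not tested.

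Proteasome genes went up and down together across libraries. Over the 946 pairs of members, the median Pearson r of log2(CPM + 1) values over 130 libraries was 0.435, against 0.075 over all pairs of autosomal tested genes, and 42.2% of member pairs were over 0.5 against 10.88%. The points share their library's depth and cell makeup, so these values are given as a description. The same median was 0.463 without the 11 libraries and 0.542 without the 18, where it was 0.017 for all genes. Cytosolic ribosomal proteins had a higher median r among themselves, 0.860 with all libraries, as did the respiratory chain with 0.668 and mitochondrial ribosomal proteins with 0.560. Without the 18 these medians were 0.807, 0.549 and 0.499, so mitochondrial ribosomal proteins then lay below the members. After regression on the first 10 principal components of the other genes, the members' median r was 0.074 and that of all genes 0.0018, while the 3 other complexes had 0.307, 0.149 and 0.052 in the same order.

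The 120 pairs within the core had a median r of 0.576 with all libraries and 0.703 without the 18, the 272 pairs of a core and a regulatory subunit 0.479 and 0.636, and the 136 pairs within the regulatory particle 0.428 and 0.575. Pairs of an assembly factor and a core subunit had 0.541 and 0.566. The core pairs had the highest class median in these sets, but not with median-of-ratios scaling, where they had 0.644 and assembly factors with the core 0.649, nor in the decimal series alone without the striatal-like libraries, where these were 0.478 and 0.490. Pairs of an activator and a core subunit had 0.270 and 0.334, and the 6 pairs among activators -0.07 and -0.004. In the residuals on 10 components, pairs within the core had a median of 0.202. The order of these class medians is a description over pairs that share genes and libraries.

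With all libraries, the highest pairs were Psmb4 with Psmb6 at 0.933, Psmb1 with Psmb4 at 0.921 and Psma6 with Psmb1 at 0.907. Among the catalytic subunits, Psmb5 and Psmb6 had 0.892, Psmb5 and Psmb7 0.887, and Psmb6 and Psmb7 0.907. All of these values include decimal 15, which lay above the range of the 112 in each of these genes. Psmb4 with Psmb6 had a lower r without the 18. The part of decimal 15 alone in these pairs was not tested. Psma2 with Psmb1 went from 0.606 with all libraries to 0.926 without the 18, the highest pair there. Psmc3, an ATPase, with Psmd4 had the highest r in the residuals on 10 components, 0.542. The members with the highest median r with the others were Psma7 (0.631), Psma6 (0.621) and Psmb3 (0.614). Lowest were Psme4 (-0.353), Psma8 (-0.277) and Psmd1 (-0.026), and without the 18 these had -0.21, -0.21 and 0.07. Psme4 ran against Psmc5 with -0.758 and against Psmb5 with -0.757, and these were -0.405 and -0.581 without the 18. Psmd1 and Psmd2 had 0.597 with each other, and Psmd2 had a median of 0.044 with the other members.

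**Figure D4:**
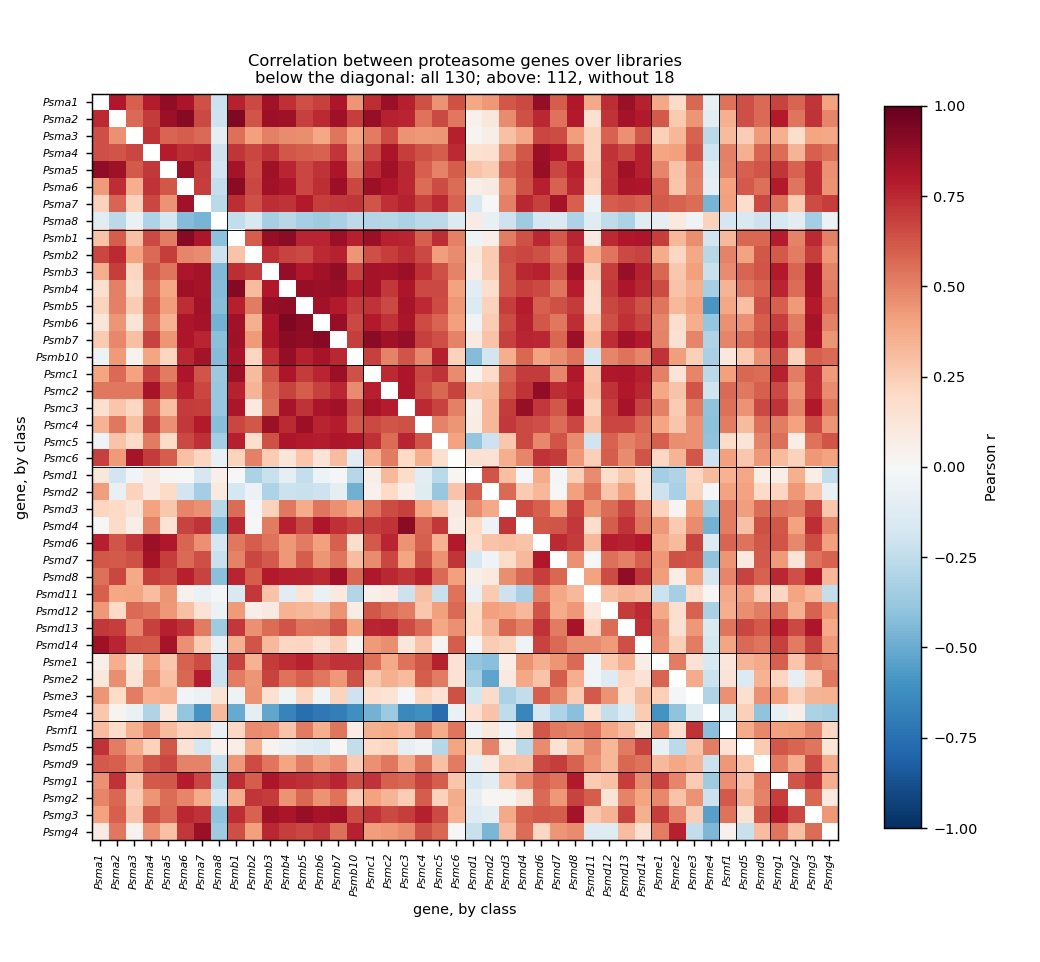
Pearson r of log2(CPM + 1) between the 44 proteasome genes, ordered by class with black lines between classes; below the diagonal over all 130 libraries, above it over 112. The core beta block is the darkest red below the diagonal, while Psme4, Psma8, Psmd1 and Psmd2 form pale or blue lines; Psme4 with Psmc5 is the lowest pair at -0.758.

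Some members neighbour one another in the genome, by the positions in the table. Psme1 and Psme2 lie 14.1 kb apart on chromosome 15 and had an r of 0.584 with all libraries and 0.511 without the 18. Psmb5 lies 7.37 kb from Psmb11 on the same chromosome, with an r of -0.107. Psmb4 and Psmd4, 163 kb apart on chromosome 2, had 0.771, and Psmb8 and Psmb9, 11.9 kb apart on chromosome 20, had 0.672. The 44 members are spread over 16 chromosomes.

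The interferon-induced proteasome genes were set beside the core and beside antigen presentation genes. Without the 18 libraries, Psmb10 had a median r of 0.673 with the constitutive core subunits, which are the 14 core members other than Psmb10 and the divergent Psma8, and 0.659 with B2m, the light chain of class I molecules. Psme1 had 0.516 with the core and 0.686 with B2m, and Psme2 had 0.279 and 0.647. The constitutive Psmb5, Psmb6 and Psmb7 had 0.685, 0.743 and 0.813 with the 13 others of that core set and 0.303, 0.218 and 0.252 with B2m. Psmb8 and Psmb9 had 0.308 and 0.220 with the core, 0.670 and 0.610 with B2m and 0.631 with each other. Over the 16 interferon genes of the list, the median r was lower: 0.215 for Psmb10, 0.334 for Psme1 and 0.107 for Psme2. B2m is on that list and had the highest r of the 16 with each of them, while the lowest were -0.129, -0.078 and -0.257. Psmb5, Psmb6 and Psmb7 had medians of 0.032, 0.062 and 0.107 over the same list. C1qa, a microglial gene, had 0.701 with Psmb10, 0.653 with Psme1 and 0.341 with Psme2. With Psmb5, Psmb6 and Psmb7 C1qa had 0.448, 0.487 and 0.483. Csf1r, also microglial, had 0.457, 0.534 and 0.382 with Psmb10, Psme1 and Psme2 and 0.031, -0.023 and -0.002 with Psmb5, Psmb6 and Psmb7. With all libraries Csf1r had 0.007, 0.098 and 0.134 with Psmb10, Psme1 and Psme2, and C1qa had 0.704, 0.622 and 0.515. B2m had 0.528, 0.704 and 0.630 with the same genes with all libraries. With Psmb5, Psmb6 and Psmb7 B2m had 0.474, 0.324 and 0.379 there, so its values for Psmb10 and Psmb5 lay close. The part of microglia in these values was not tested. Of the 16 interferon genes, 2 were higher and 1 lower in the decimal series without the 18. That is 18.8% in either direction, below the 34.2% of all tested genes. Among them B2m was higher by 0.24 (limma adjusted p = 0.000345), and Tapbp, a chaperone of peptide loading, was lower with -0.08 (adjusted p = 0.0318). Without the 11, Tapbp passed alone of the list, with -0.11 (6.25%, against 8.77% of all tested genes). With all libraries 2 were lower (12.5%, against 27.6% of all tested genes in either direction), Tapbp with -0.12 and the transcription factor Irf1 with -0.12.

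Of 31 other genes of the pathway, Psmb8 and Psmb9 included, with all libraries 6 were higher in the decimal series and 7 were lower; the counts were 3 and 4 without the 11, and 8 and 6 without the 18. Together these are 41.9%, 22.6% and 45.2% of the 31, beside 27.6%, 8.77% and 34.2% of all tested genes. Sem1, a small subunit of the regulatory particle with a name outside the rule, was higher by 0.32, 0.25 and 0.25 in these fits (limma adjusted p = 6.26e-06, 0.000558 and 2.25e-08). Adrm1, a ubiquitin receptor of the same particle, had -0.04, -0.08 and -0.02 and did not pass. Usp14, a deubiquitinase that docks on the proteasome, was lower in all of these fits with -0.15, -0.12 and -0.10. Uba1, the enzyme that activates ubiquitin, was lower in all of them with -0.10, -0.09 and -0.08. Rps27a, a fusion of ubiquitin with a ribosomal protein, was higher in all of them by 0.27, 0.25 and 0.33. Nfe2l1 was higher by 0.08 with all libraries (adjusted p = 0.0267) and had 0.03 without the 18 (adjusted p = 0.255). Nfe2l2, its relative in the oxidative stress response, was higher by 0.13 with all libraries and by 0.20 without the 18, and had 0.14 without the 11, where it did not pass.

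Several further pathway genes passed in part of the fits. With all libraries Faf1, a cofactor of the p97 segregase, was higher by 0.08, while Rad23b, a shuttle of ubiquitin-tagged proteins, Nploc4, another p97 cofactor, Txnl1, a thioredoxin-like protein of the proteasome, and Uchl1, an abundant neuronal deubiquitinase, were lower with -0.14, -0.09, -0.07 and -0.16. Of these, Rad23b also passed without the 18, with -0.08. Ubqln2, a shuttle, was lower without the 11 and without the 18, with -0.15 and -0.17. Without the 18, Pomp, the chaperone that matures the core, was higher by 0.17, Uchl5, a proteasomal deubiquitinase, by 0.12, Ufd1, a p97 cofactor, by 0.08, and Zfand5, a zinc finger protein that stimulates the proteasome, was lower with -0.06.

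Genes outside the rule were ranked by their likeness to the core. Over the 119 libraries without the striatal-like ones, the mean z-score of the 16 core members had its highest r, among autosomal genes that are not members, with Mrpl20 (0.926), a mitochondrial ribosomal protein. Phb1 had 0.915, Swi5 0.913, Ndufv2 and Mea1 0.911, Ndufa4 and Atp5f1c 0.908, Nedd8 and Sdhaf1 0.907 and Akr1a1 0.901. Ndufv2, Ndufa4 and Atp5f1c belong to the respiratory chain, and Nedd8 is a ubiquitin-like protein. Without the 18, these 10 had 0.863 to 0.917, but only Phb1, Ndufv2 and Ndufa4 of them were among the 10 highest there. The highest there was Rbx1, named after it was seen, with 0.928 against 0.775 over the 119, so the ranking depended on the libraries used. The lowest values, named after they were seen, were those of Srcap (-0.891), Plec (-0.883), Hectd4 (-0.882), Nf1 (-0.875) and Chd5 (-0.873). Within the pathway, Rps27a had 0.764 and Uchl1 0.743, while Nfe2l1 had -0.535 and Ecpas, a proteasome adaptor, -0.654. Without the 18 libraries Nfe2l1 had -0.183 and Ecpas -0.411.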

How the data were processed

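Polyadenylated RNA of the prelimbic cortex was sequenced from heterogeneous stock rats. Per the submitters' processing notes, kallisto 0.48 was used; the genome build is not given in the sources used here. The values deposited by the authors are log2 of an estimated count per gene plus 1, not scaled for depth, for 38354 genes in 130 libraries. They were taken back to counts, scaled to CPM per library and expressed as log2(CPM + 1), with a pseudocount of 1. No 2 libraries held identical values, and the highest correlation between centred libraries was 0.945.

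Genes with a mean of at least 1 were tested (15150, of which 14632 autosomal) with limma 3.58.1 in R 4.3.3, with a trend, two-sided, and Benjamini-Hochberg adjustment over all of them at 0.05, on the libraries of the groups compared. Correlations, spread (SD over a lowess trend, fraction 0.3) and ranges used Python 3.11.15, numpy 2.4.6 and statsmodels 0.14.6 and have no test. The fits were tested on simulated data, in which genes varied independently and no libraries stood apart. That check therefore says nothing about the dependence on the libraries left out. Promoter windows are RefSeq's in GRCr8. Psma7, Psmd6, Psmd12 and Psmd14 had none in that table.

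Groups were taken from the form of the identifiers in the labels. P-values measure the spread between animals within a series. In fits without libraries at the end of the first component, that spread also carries a choice made from the tested values. Totals of 15122563 to 55950487 estimated counts bound the counting error, and kallisto's own uncertainty was not used. The members, the gene lists, the rule for named genes and the sets of libraries left out were chosen with earlier results of these data known. In full were named the members with the largest differences past the threshold, up to 4 in each direction, the 3 with the highest SD ratio, the 3 with the highest and the 3 with the lowest median r, the catalytic subunits, Psme1 and Psme2, and those nearest the level threshold. Of other genes, the 10 most like the core were named, and those of the pathway and interferon lists past the threshold apart from some that are counted but not reported here by name. Nlrc5 and Isl1 fell below the level, and Paaf1 was not analysed here. Alternatives in scaling, filter, pseudocount, covariates and libraries are given in the closing section.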

Additional observations from a re-analysis of the deposited data

How the results depend on the processing

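The count of members higher in the decimal series (8 with all libraries) was 4 with median-of-ratios scaling, 3 with the striatal marker mean as covariate, 3 without the 11 striatal-like libraries, 3 without these and decimal 15, 26 without the 18 libraries, 24 without the 7 alone (chosen after seeing the data), and, with median-of-ratios scaling added after seeing the data, 2 without the 11 and 26 without the 18. The count lower (3 with all libraries) was 1 in each of these fits other than median-of-ratios scaling with all libraries, where it was 4. A higher level filter, a pseudocount of 0.1, all genes above 0, the library total as covariate and all 3 groups in the fit left both counts within 1.5 times. Without the 7 alone the background was 25.8% higher and 20.9% lower. Of the 11 members called with all libraries, 9 were called in the same direction without the 18 and 2 without the 11. The cause was not tested.

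Signs turned in values that did not pass, apart from Psmb2 without the 7 (0.063, adjusted p = 0.0455 by limma). Without the 18, Psmb2 had 0.0273, Psmd1 -0.0329, Psme3 0.0318, Psme4 -0.0363, Psmg1 0.0497 and Psmg3 0.0759; with median-of-ratios scaling as well, they had 0.0205, -0.0399, 0.0249, -0.0432, 0.0429 and 0.0692. Without the 7, Psmd1 had -0.0335, Psmg1 0.0578 and Psmg3 0.0688. Without the 11, Psmb3 had -0.00187, Psme4 -0.0146 and Psmg3 0.00691, and with median-of-ratios scaling as well -0.00192, -0.0154 and 0.00704. Without the 11 and decimal 15, Psmb3 had -0.0241, Psmb6 -0.00892 and Psmd1 -0.00218. With the striatal covariate, Psmb3 had -0.00979, Psme4 -0.0232 and Psmg3 0.00634. With the library total as covariate, Psmc6 had -0.00418, Psmd1 -0.000556, Psmg1 0.0154 and Psmg3 0.0177. With median-of-ratios scaling, Psmb7 had -0.0043 and Psmd1 -0.00815.

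Median-of-ratios scaling shifted the median gene by -0.09 to 0.85, the latter in decimal 15, and by -0.01 in the series difference. The median r between members was 0.435 and was 0.074 in residuals on 10 components; under the other alternatives it was 0.398 to 0.610. The planned scaling of levels by coding length was not run, since no protein lengths were used here. No paired analysis was possible because the labels give no replicate numbers that the series share.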

Other observations

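The X-linked Psmd10, an assembly chaperone of the regulatory particle that the autosomal rule leaves out, had a mean level of 4.48 ± 0.22 (SD, n = 130) on the log2(CPM + 1) scale. Its difference between the decimal and E21DCD series was 0.07 with all libraries, 0.04 without the 11 striatal-like libraries and 0.12 without the 18 (limma adjusted p = 0.169, 0.646 and 0.00336). It thus passed in the fit in which 26 members of the set were higher, and not in the others.

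Within each series taken alone the members' co-variation differed in size. The median r over member pairs was 0.398 in the 57 decimal libraries that were not striatal-like, where all autosomal pairs had 0.156, and 0.610 in the 62 E21DCD and reassigned libraries, where all pairs had 0.022. Pairs within the core had 0.478 and 0.782, and pairs of an assembly factor and a core subunit 0.490 and 0.691. The difference between the series was not tested. The SD ratio of Psmb10 was 1.81 in the decimal libraries, which hold decimal 15, and that of Psmb3 was 1.87 in the E21DCD and reassigned libraries.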
